A study of Ovis aries with 13 samples.

Results

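The genes described here encode ribosomal proteins and translation factors, measured in the left ventricle of sheep around birth. They were taken as every non-control probe whose gene name, on the array or through the RefSeq identifiers in its accession list, starts with RPL, RPS, MRPL, MRPS, EIF or EEF. The rule found 26 of 15008 probes, for 16 of 972 named genes. Of the 26 probes, 22 were found by the name on the array and 4 by a RefSeq identifier alone. The cytosolic large subunit had 8 probes for 5 genes, the small subunit 10 probes for 5 genes, and the mitochondrial ribosome 1 probe for 1 gene. Initiation factors had 2 probes for 2 genes and elongation factors 5 probes for 3 genes. With 1 mitochondrial gene on the array under this rule, the comparison of cytosolic with mitochondrial ribosomal proteins rests on MRPL32 alone.

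The study measured RNA of frozen left ventricle on 13 Agilent 1-colour arrays, 1 per animal. The fetal group held 6 animals at gestational day 142 (2 females and 4 males), and the newborn group 7 at postnatal day 1 (4 females and 3 males). The labels name no strain, genotype or agent for either group, and 9 animals share 4 animal numbers with another under a different letter, with no meaning given. Both groups lay on 2 slides. Labels do not say how the animals were related, so p-values measure the spread between these arrays. The 75th percentile of signal was 8.77 to 13.6 times the background, and 62.7% to 71.4% of probes were above background on each array.

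Ribosomes of the cytosol read nuclear messages, and those of mitochondria make the few respiratory chain proteins that the organelle's own genome encodes. Initiation factors bring the small subunit to the start codon, and elongation factors deliver aminoacyl-tRNA and move the ribosome along the message. Messages of ribosomal proteins and of several elongation factors share a run of pyrimidines at their start and are known to be translated together in response to mTORC1, and heart muscle builds ribosomes when it grows.

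The calls described here rest on probes named EEF1A1 and EEF1E1, and their letters bear on how they can be read. All are 60 bases long, written 5′ to 3′. The first line is the reverse complement of EEF1A1 probe 1, in which capitals mark the bases GANGCNCCNGGNCA (N is any base), which can code for the third conserved box of translational GTPases. The second line is that probe as the array holds it, with the same bases in capitals. In the third line, capitals mark the 14 bases that EEF1A1 probe 2 shares with probe 1.
EEF1A1 probe 1, reverse complement: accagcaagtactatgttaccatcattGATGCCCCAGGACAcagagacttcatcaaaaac
EEF1A1 probe 1, as on the array: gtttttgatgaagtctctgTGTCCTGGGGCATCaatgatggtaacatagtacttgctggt
EEF1A1 probe 2, as on the array: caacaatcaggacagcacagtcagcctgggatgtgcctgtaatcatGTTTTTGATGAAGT
Of the 15008 probes, 0 held GANGCNCCNGGNCA as on the array and 1 held it on the opposite strand (0.00666%), and that 1 was EEF1A1 probe 1. This is a match of letters, and which strand the labelled RNA came from was not tested.

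The EEF1E1 pair is shown because its probes are not independent measurements. Capitals mark the 59 bases that they share.
EEF1E1 probe 1: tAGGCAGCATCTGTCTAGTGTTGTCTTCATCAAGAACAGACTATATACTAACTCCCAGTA
EEF1E1 probe 2: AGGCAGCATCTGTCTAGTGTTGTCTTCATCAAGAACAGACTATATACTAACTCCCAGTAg
Such a step of 1 base was also found in the pairs for RPL14, RPS26 and RPS27A and between RPL10 probes 1 and 2, while RPL10 probe 3 shared 43 bases with probe 1. Counts of probes therefore hold some sequences more than once, and counts by gene are given beside the main ones.

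For a further 27 probes, a RefSeq gene number (15), a synonym (1) or the array's description (11) gave a name of the same families. They fall outside the rule and are given as additional probes. An additional RPL4 probe and an unnamed probe on the array hold the same 59 bases in opposite directions, marked by capitals.
RPL4, additional probe 2: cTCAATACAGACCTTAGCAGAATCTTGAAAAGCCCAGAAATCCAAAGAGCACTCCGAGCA
Unnamed probe, opposite strand: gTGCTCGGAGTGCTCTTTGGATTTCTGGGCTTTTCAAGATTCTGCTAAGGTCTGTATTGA
Levels are log2 of the background-subtracted signal minus the 75th percentile of that array, so 0 is the 75th percentile. The named direction had a mean level of 6.03 and the opposite one -0.41, and the latter was above background on all 13 arrays. An additional RPS2 probe, RPS2 being a small subunit protein, had a level of 9.36, and the unnamed probe with 55 of its bases reversed had -0.57. These values describe single probes, since the signals of different probes are not comparable as amounts of transcript.

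Of the 26 probes, 24 were above background on at least 6 arrays and were tested. The remaining 2, RPS25 probes 3 and 4, were above background on 0 of 13 arrays, with levels between -6.82 and -4.42, although RPS25 probes 1 and 2 had mean levels between 7.68 and 8.13 in both groups. No member probe was saturated on any array. All 16 tested probes of cytosolic ribosomal proteins lay above the 75th percentile of the array in the fetal group, with mean levels over all arrays from 3.07 (RPL4) to 9.24 (RPL6). The 5 elongation factor probes ranged from -0.26 to 3.04, the initiation factors from -1.48 (EIF4GI) to 5.24 (EIF1AX), and MRPL32 stood at -1.02.

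Newborn and fetal arrays were compared to ask which of these genes changed across birth, with limma and Benjamini-Hochberg adjustment over all 10257 tested probes. Of the 24 member probes 3 passed an adjusted p of 0.05, all higher in newborns, and they carry the names EEF1A1 and EEF1E1. Whether the signal of the probes named EEF1A1 came from its messenger RNA was not tested. Over the whole array 23.1% of tested probes passed, 12% higher and 11.1% lower in newborns. The members' share, 3 of 24 (12.5%), was below the share for both directions and near the 12% of all probes called higher. The members' median newborn minus fetal difference was 0.14 (log2), against 0.03 for all tested probes, with 21 higher and 3 lower. With normexp correction on the background of each spot 0 members passed, when 48 of all 10257 probes did. Within slides 1 and 2 the count was also 0, when 356 and 23 of all probes passed. A total of 6 of 24 had an unadjusted p under 0.05, against 3877 of 10257 probes. Counted by gene, 2 of 16 passed in limma, 14 were higher and 2 lower in newborns, and 4 had an unadjusted p under 0.05.

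**Figure D1:**
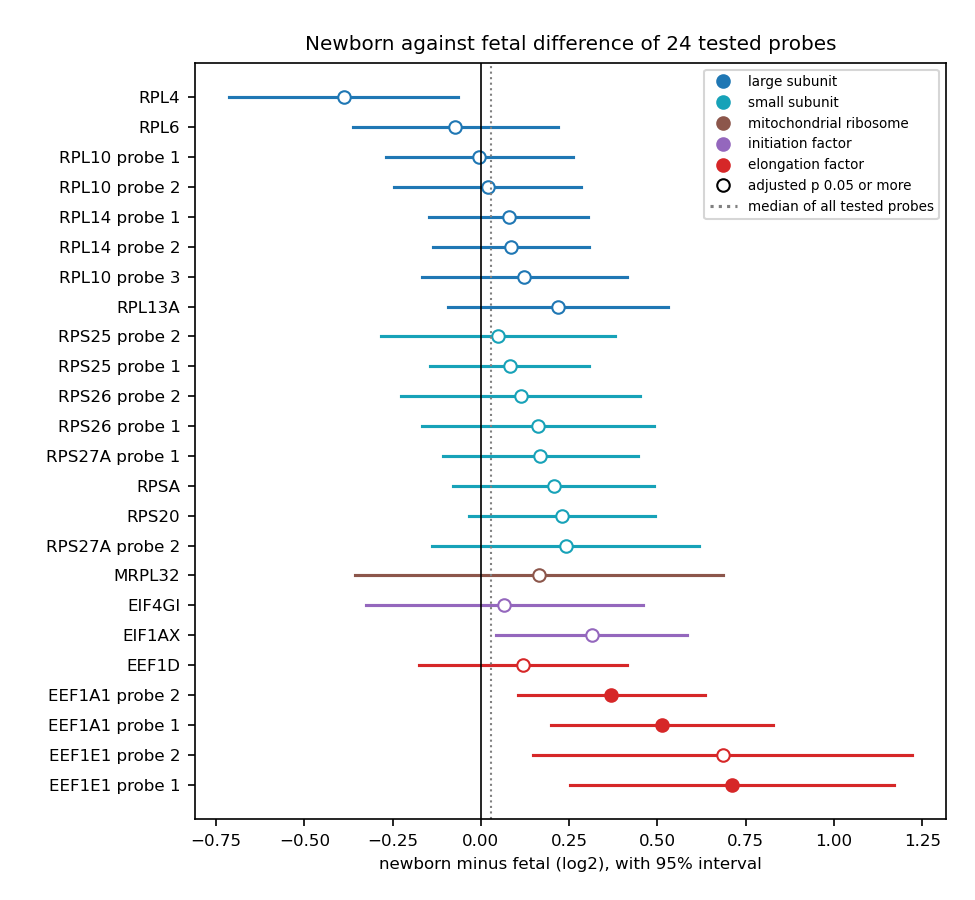
Newborn minus fetal difference (log2, horizontal axis) of each of the 24 tested member probes, with its 95% interval, coloured by role; filled points passed an adjusted p of 0.05 in limma, and the dotted line is the median of all tested probes (0.03). The 3 filled points are EEF1A1 probes 1 and 2 and EEF1E1 probe 1, and the ribosomal protein points lie between -0.39 and 0.24.

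Cytosolic ribosomal proteins gave 0 calls of 16 tested probes and 0 of 10 genes in limma, with 1 of the 10 genes, RPL4, at an unadjusted p under 0.05. The differences of the 10 genes ran from -0.39 to 0.24 with a median of 0.12, and 8 genes were higher and 2 lower in newborns. Their standard errors ran from 0.105 to 0.177. A gene with several probes was represented by the brightest probe with a value on all arrays, or the brightest where none had one.

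In the large subunit, 5 of 8 probes and 3 of 5 genes were higher in newborns, and the median difference of the probes was 0.05. RPL4, whose protein lines the exit tunnel of the ribosome, had fetal levels from 2.97 to 3.53 (median 3.25) and newborn levels from 2.17 to 3.15 (median 3.03). The groups overlapped, with 3 of 7 newborn arrays below every fetal one. The difference was -0.39 ± 0.152 (SE, n = 6 and 7), with an adjusted p of 0.0766 in limma. Newborn 6 had the lowest level, 2.17, followed by 2.88, and without it the call was not made either. With quantile normalization RPL4 passed, at -0.47 with an adjusted p of 0.0321. The additional RPL4 probes differed by -0.17 and -0.23, with adjusted p of 0.256 and 0.142, and newborn 6 was not the lowest array on either of them (6.29 and 5.85, against lowest newborn levels of 6.11 and 5.72).

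RPL6, a large subunit protein and the brightest member probe, had fetal levels from 8.66 to 9.51 (median 9.37) and newborn levels from 9.002 to 9.478 (median 9.14). The newborn range lay inside the fetal range, and the difference was -0.07 ± 0.136 (SE) with an adjusted p of 0.728. RPL13A, known for a role outside the ribosome in silencing inflammatory messages, had the largest positive difference among large subunit probes. It had fetal levels from 5.93 to 6.87 (median 6.64) and newborn levels from 6.57 to 7.14 (median 6.79). The groups overlapped, and the difference of 0.22 ± 0.146 (SE) had an adjusted p of 0.291. Without fetal 2 it was 0.09. RPL10, which joins the subunit late in its assembly, gave differences of -0.004, 0.02 and 0.12 on its 3 probes. The value of fetal 2 was missing on RPL10 probe 1 because its spot carried an outlier mark. RPL14, another large subunit protein, differed by 0.08 and 0.09 on its 2 probes. The adjusted p of these 5 probes ran from 0.534 to 0.983.

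In the small subunit, 8 of 8 tested probes, for 5 of 5 genes, had differences above 0, from 0.05 to 0.24 with a median of 0.16, and 0 passed in limma, also 0 at an unadjusted p under 0.05. Without fetal 2, 6 of 8 were above 0, with RPS26 probe 2 at -0.02 and RPS25 probe 2 at -0.03. With quantile normalization 5 of 8 were above 0. RPS27A, made as a fusion with ubiquitin, had the largest value. Its probe 2 had fetal levels from 8.003 to 8.81 (median 8.66) and newborn levels from 8.23 to 9.27 (median 8.88). Newborn levels exceeded every fetal level on 4 of 7 arrays, and the difference of 0.24 ± 0.177 (SE) had an adjusted p of 0.339. Without fetal 2 it was 0.13. Probe 1 gave 0.17 ± 0.129 with an adjusted p of 0.358 and lacked 1 newborn value.

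RPS20, located at the head of the small subunit, had fetal levels from 7.88 to 8.55 (median 8.41) and newborn levels from 8.40 to 8.83 (median 8.47). The groups overlapped, and the difference was 0.23 ± 0.123 (SE) with an adjusted p of 0.187. RPSA, also known as a laminin-binding protein, had fetal levels from 5.83 to 6.26 (median 6.11) and newborn levels from 5.81 to 6.57 (median 6.32). Of the newborn arrays 5 were above every fetal one and 1 was below, with a difference of 0.21 ± 0.133 (SE) and an adjusted p of 0.274. RPS26, which contacts messenger RNA near the exit channel, gave 0.16 and 0.11 on its 2 probes, and RPS25, known for its part in initiation at internal entry sites, gave 0.08 and 0.05. Their adjusted p ran from 0.469 to 0.84, and RPS26 and RPS25 probe 2 each lacked 1 newborn value.

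MRPL32, a protein of the large mitochondrial subunit whose maturation by a mitochondrial protease is needed for assembly, had fetal levels from -1.53 to -0.73 (median -1.07) and newborn levels from -2.15 to -0.35 (median -0.91). The newborn range held the whole fetal range. The difference was 0.16 ± 0.244 (SE) with a 95% interval from -0.36 to 0.69 and an adjusted p of 0.65 in limma. Newborn 1 had the lowest level, and without it the difference was 0.37, still short of the threshold. The value of MRPL32 lay within the range of the 10 cytosolic genes, and its interval covers all of them except the lower end at RPL4, and with 1 mitochondrial probe the 2 kinds of ribosome were not tested against each other.

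EIF1AX, which helps the scanning ribosome find the start codon, had fetal levels from 4.80 to 5.35 (median 5.08) and newborn levels from 4.93 to 5.72 (median 5.39). Of the 7 newborn arrays 5 lay above every fetal one and newborn 6 had the lowest newborn level. The difference of 0.31 ± 0.126 (SE) had an adjusted p of 0.0846, and without newborn 6 it was 0.39 with an adjusted p of 0.0165. Leaving out the lowest newborn array had to raise the difference. Without any other single array EIF1AX did not pass in limma, with adjusted p from 0.0574 to 0.172. EIF4GI, the array's name for a form of the scaffold that joins the cap-binding protein to the small subunit, differed by 0.07 ± 0.184 (SE) with an adjusted p of 0.817.

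The 3 member calls were on probes named EEF1A1 or EEF1E1. EEF1A1 encodes the factor that delivers aminoacyl-tRNA to the ribosome. On probe 1 the fetal levels were 1.673, 1.058, 1.502, 1.603, 1.569 and 1.743, and the newborn levels were 1.822, 1.926, 2.315, 2.574, 1.942, 1.834 and 1.850. Every newborn array was above every fetal array. It was the only 1 of the 24 member probes whose groups did not overlap, while 6.89% of all tested probes had groups that did not overlap in either direction. The difference was 0.51 ± 0.147 (SE), a 1.43-fold rise with an adjusted p of 0.0221 in limma.

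EEF1A1 probe 2 had fetal levels from 0.59 to 1.12 (median 1.02) and newborn levels from 1.007 to 1.681 (median 1.28). Of the newborn arrays 6 of 7 lay above every fetal one. The difference of 0.37 ± 0.124 (SE), or 1.29-fold, had an adjusted p of 0.0444 in limma, and this call was lost under 22 of 29 alternatives, with adjusted p from 0.016 to 0.626. The call held without newborn 1 or newborn 6 and was lost without any other single array, with adjusted p from 0.0511 to 0.0966. Fetal 2 had the lowest level on both probes, and without it probe 2 differed by 0.29.

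The additional probes for the same factor did not move in that way. A probe given the name EEF1A1 by a RefSeq gene number had fetal levels from 4.67 to 5.33 (median 5.24) and newborn levels from 4.56 to 5.26 (median 5.12). The groups overlapped and the difference was -0.14 ± 0.135 (SE) with an adjusted p of 0.475. A pair of probes described on the array as elongation factor 1 alpha, which share 59 bases, differed by -0.07 and -0.10 with adjusted p of 0.684 and 0.615. These 3 probes had mean levels above 5 in both groups, while probe 1 of the pair that passed holds the GTPase box on its opposite strand and probe 2 overlaps it in the same direction. Whether the signal of that pair came from EEF1A1 messenger RNA was not tested.

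EEF1E1 encodes a protein that resembles an elongation factor subunit and is known as a member of the complex of aminoacyl-tRNA synthetases. On probe 1 the fetal levels were -0.66, -0.85, -0.97, -0.34, -0.56 and -0.43, and the newborn levels were -0.29, 0.01, 0.56, 0.38, 0.32, -0.92 and 0.46. Of the newborn arrays 6 of 7 lay above every fetal one, and newborn 6 lay near the lowest fetal level. The difference was 0.71 ± 0.214 (SE), a 1.64-fold rise with an adjusted p of 0.0286 in limma, and this call was lost under 13 of 29 alternatives, with adjusted p from 0.0013 to 0.446. Among them were the fits without fetal 2, fetal 3, newborn 3, newborn 4, newborn 5 or newborn 7, in turn, where the adjusted p ran from 0.0503 to 0.0657. The adjusted p was 0.057 with animal number as a random block, 0.0895 with the replicate block and 0.0517 with sex in the model. Probe 2 differed by 0.69 ± 0.252 (SE) with an adjusted p of 0.0623, and without newborn 6 by 0.90 with an adjusted p of 0.00122. Newborn 6 was the lowest newborn array on probe 2, so leaving it out had to raise the difference. Calls over all probes then rose from 2366 to 3116. Without any other single array probe 2 did not pass in limma, with adjusted p from 0.0562 to 0.127.

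EEF1D, a subunit of the exchange factor that reloads eEF1A with GTP, had fetal levels from 2.43 to 3.31 (median 3.04) and newborn levels from 2.76 to 3.34 (median 3.06). The groups overlapped and the difference was 0.12 ± 0.138 (SE) with an adjusted p of 0.555. Without fetal 2, its lowest array, the difference was 0.01.

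**Figure D2:**
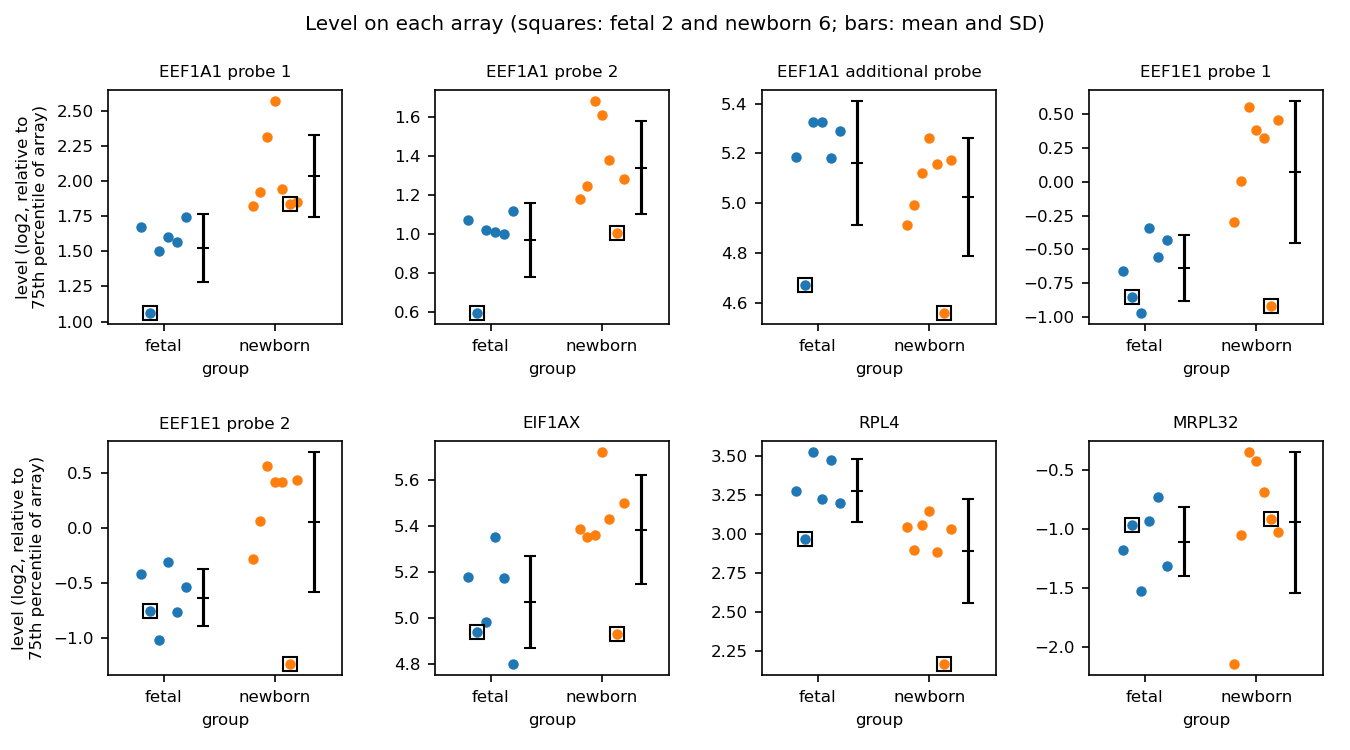
Level on each array (log2, relative to the 75th percentile of that array) of 8 probes, with fetal arrays in blue, newborn arrays in orange, squares on fetal 2 and newborn 6, and bars for the mean and SD of each group. EEF1A1 probe 1 separates the groups fully, while the additional EEF1A1 probe does not, and newborn 6 is the lowest newborn array for EEF1E1, EIF1AX and RPL4.

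Adding the 27 additional probes, of which 26 were tested and 0 passed in limma, gave 23 cytosolic ribosomal protein genes, 0 of which passed. Their median difference was 0.08, with 20 higher and 3 lower in newborns. Over members and additional probes together, 1 of 32 genes passed in limma, with EEF1A1 then represented by its brighter additional probe. Of the additional probes 1 had an unadjusted p under 0.05, that of RPS15A, a small subunit protein, at 0.34 ± 0.131 (SE) with an adjusted p of 0.0695. EIF4A2, a helicase that unwinds messages for scanning, differed by 0.04 and 0.03 on its 2 probes. The additional probe of RPS6 differed by 0.17 with an adjusted p of 0.254 in limma. That of RPS15 differed by 0.05 with an adjusted p of 0.85 in limma, at low mean levels of -3.69 in fetal and -3.64 in newborn arrays.

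Fetal 2 was the lowest fetal array for 10 of 10 cytosolic ribosomal protein genes, with a mean of -0.46 (log2) from its group. Newborn 6 was the lowest newborn array for 6 of 10, with a mean of -0.28, and newborn 4 the highest for 6, with 0.20. The other arrays lay between -0.10 and 0.15. Among the 383 probes with a level over 5, the median on fetal 2 was -0.17 and on newborn 6 -0.09, and over all tested probes -0.01 and 0.02. The lowest median of those 383 probes was on newborn 3, at -0.21, where the mean of the 10 genes was -0.10. The 75th percentile of signal on fetal 2 was 367, the highest of the 13 arrays. The part of depth or RNA quality in this was not tested.

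**Figure D3:**
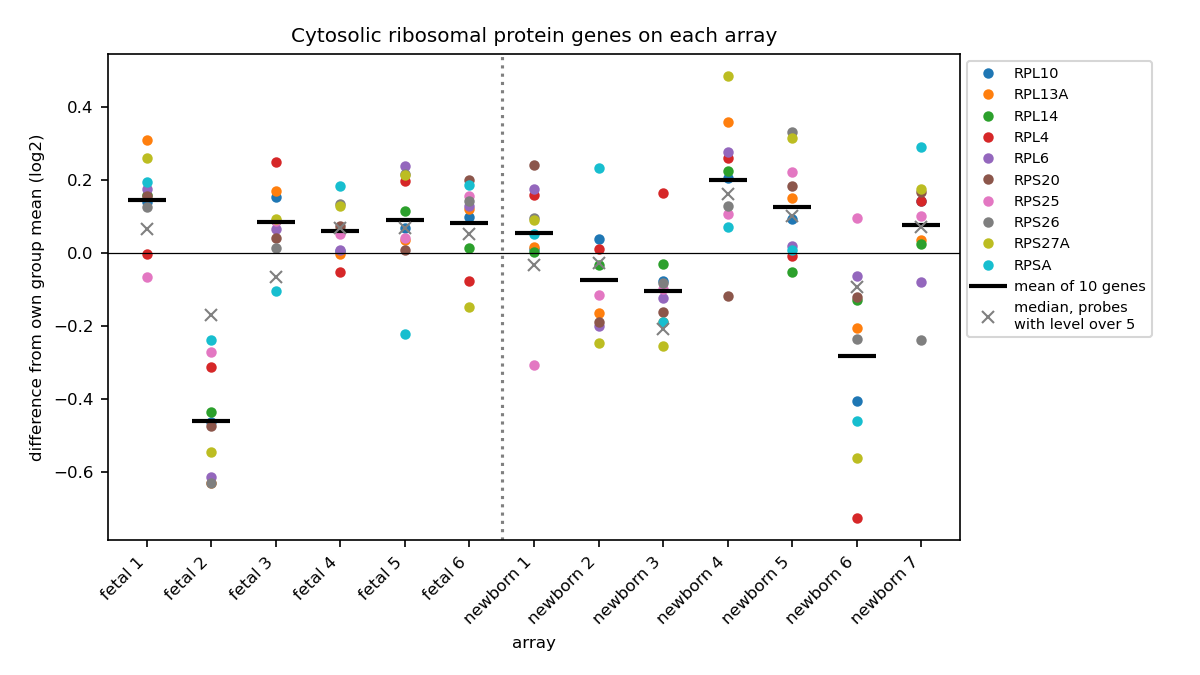
Difference from the mean of its own group (log2) of each of 10 cytosolic ribosomal protein genes on each of 13 arrays, with black bars for their mean and crosses for the median of all probes with a level over 5. Fetal 2 stands lowest at -0.46 and newborn 6 next at -0.28.

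The counts of calls moved with single arrays. Without fetal 2, 1 member probe passed and the median difference of the 10 cytosolic ribosomal protein genes was 0.03, the same to 2 decimals as that of all tested probes (0.03), of which 18.4% passed. Without fetal 3, newborn 3, newborn 4, newborn 5 or newborn 7, in turn, 1 member probe passed as well. Of all 10257 probes 1772, 2258, 1820, 1831 and 1846 passed in these fits. Without newborn 6, 5 of 24 member probes passed, against 30.4% of all probes. Without both fetal 2 and newborn 6, which were picked because they stood lowest on these genes, 26.5% of all probes passed. The 6 member probes that passed then were both probes named EEF1A1, both named EEF1E1, EIF1AX at 0.36, and RPL4. RPL4 fell by 0.33 with an adjusted p of 0.0248 in limma. The median of the 10 genes was then 0.05, against 0.02 for all probes. With quantile normalization both medians were 0.01.

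Over the 45 pairs of the 10 cytosolic ribosomal protein genes, the median Pearson correlation of their deviations from group means was 0.63, from 0.01 to 0.91 over 13 arrays. Over all pairs of tested probes the median was 0.003, and over pairs of probes with a level over 5 it was 0.23. The points of each pair share the array, its scaling and its RNA, so these values describe the arrays. Without fetal 2 the median was 0.37, and with quantile normalization 0.38.

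Against the mean of the other cytosolic genes, the closest members were RPL10 (r = 0.95 over 13 arrays), RPL13A (0.93) and RPL14 (0.89). The lowest of the 10 were RPS25 (0.42) and RPSA (0.52). Without fetal 2 the order changed, with RPS27A (0.91) and RPL10 (0.89) highest and RPS25 (0.01), RPS20 (0.38) and RPSA (0.44) lowest. Over 13 arrays EEF1D followed the cytosolic ribosomal mean at 0.88, closer than EEF1A1 (0.63), EIF1AX (0.61) or EEF1E1 (0.49). EEF1A1 is represented here by its probe 1, and whether that signal came from EEF1A1 messenger RNA was not tested. The brighter additional EEF1A1 probe is not part of these values. Without fetal 2 EEF1D and EIF1AX both stood at 0.74, with EEF1E1 at 0.58 and EEF1A1 at 0.37. MRPL32 and EIF4GI both stood at -0.08. Without fetal 2 the values of MRPL32 and EIF4GI were -0.004 and 0.07.

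**Figure D4:**
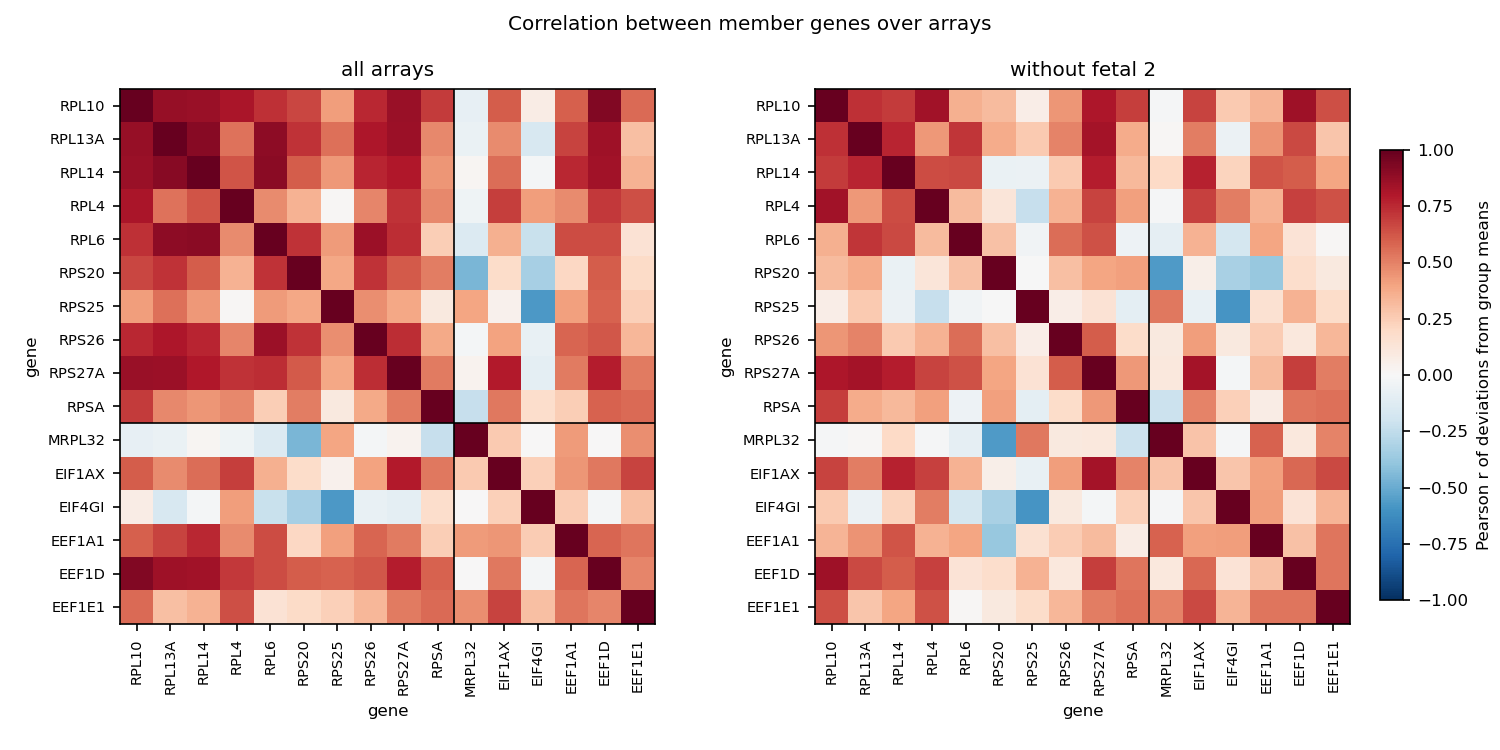
Pearson correlation between the deviations of 16 member genes from their group means, over 13 arrays on the left and over 12 arrays without fetal 2 on the right, with lines that set off the 10 cytosolic ribosomal protein genes. The block of cytosolic genes is paler on the right, where its median falls from 0.63 to 0.37, and MRPL32 and EIF4GI lie outside it in both. EEF1A1 is represented by its probe 1.

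Of all 10257 tested probes, 98 (0.955%) had a correlation over 0.8 with the mean of the 10 genes. They held 11 member probes, 10 additional probes and 69 probes with no gene name. The mean is built from member probes, some of which share bases with other member probes, so the place of members among the 98 is in part fixed by how it was made. Among 589 named genes outside the families, the closest were MT3 (r = 0.93), named as a metallothionein, PPY (0.84), a pancreatic hormone, MYC (0.81), a transcription factor, FZD3 (0.81), a Wnt receptor, and GSTA1 (0.75), a glutathione transferase. None of these 5 passed for age, with adjusted p from 0.12 to 0.682. PPY and FZD3 were dim, at mean levels of -4.72 and -2.57, when the lowest of all tested probes was -5.19. These correlations are over 13 arrays, with fetal 2 among them.

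The sexes were compared at equal age. Of the 24 member probes 0 passed in limma and 0 had an unadjusted p under 0.05, with male minus female differences from -0.25 to 0.19. Over the whole array 1 probe passed (0.00975%), which has no gene name, and 331 had an unadjusted p under 0.05.

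For the difference between the sexes in the newborn minus fetal change, 0 members passed in limma and 0% of all probes did. An unadjusted p under 0.05 was found for 12 of 24 member probes, all with a lower newborn minus fetal value in males, against 4.94% of all probes (507). Counted by gene, these were 7 of 16, and 2 of 16 without fetal 2. The smallest was that of RPS27A probe 2, at -1.14 with an adjusted p of 0.504. Fetal 2 is 1 of only 2 female fetuses. Without it 4 of 24 members were under 0.05, against 2.95% of all probes, and RPS27A probe 2 was at -0.94 with an adjusted p of 1. That fit has 1 female fetus, assumed to vary like the other animals. With quantile normalization 2 of 24 members were under 0.05. As a description, among newborns the mean of the 10 cytosolic genes lay between -0.28 and -0.08 from the group mean on the 3 arrays of males. It lay between 0.05 and 0.20 on the 4 of females. Newborn males 2 and 3 and female 1 lay on slide 1, and females 4, 5 and 7 and male 6 on slide 2, so sex and slide were in part tied. Among fetal arrays the mean lay between 0.06 and 0.15 on those of males. On the females it was -0.46 for fetal 2 and 0.08, inside the male range, for fetal 6. The median of the 383 probes with a level over 5 lay between -0.21 and -0.03 on the newborn male arrays and between -0.03 and 0.16 on the newborn female ones.

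Other genes of the translation pathway on the array were few. Of listed genes for other ribosome parts and nascent chain handling, 4 of 13 were tested and 0 passed, among them RACK1, a scaffold on the small subunit (-0.31, adjusted p 0.2), and TPT1, which like ribosomal protein messages starts with a pyrimidine run (-0.23, adjusted p 0.214). The median of the 4 was -0.27, against 0.12 for the 10 cytosolic ribosomal protein genes. The poly(A)-binding protein PABPC1 differed by -0.05 with an adjusted p of 0.81.

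Of ribosome biogenesis genes 2 of 26 were tested and 0 passed, MYC at -0.26 and DKC1, a pseudouridine synthase, at 0.03. Of synthetases and their scaffolds 3 of 42 were tested and 0 passed, with AIMP2, a scaffold of the complex to which EEF1E1 belongs, at 0.41 with an adjusted p of 0.218. Of mTORC1 genes 2 of 27 were tested and 0 passed, AKT1 at 0.40 and PRKAA2 at -0.25. In the ATF4 list, a stress response that slows initiation, 4 of 17 were tested and 2 rose. These were PSPH, of serine synthesis, at 1.41 ± 0.166 (SE, adjusted p 0.000193 in limma), and MTHFD2, of mitochondrial folate metabolism, at 1.011 ± 0.187 (SE, adjusted p 0.00257). ATF4 itself differed by 0.50 with an adjusted p of 0.285. None of the listed mitochondrial translation factors or termination factors was matched to a probe by name.

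Of 23 listed markers of the ventricle's muscle 2 were tested, MB and TPM1, with levels above 8 on average in both groups. Of these 0 passed in limma, with MB at -0.34 (adjusted p 0.139) and TPM1 at 0.16 (adjusted p 0.247). The share of muscle cells was not tested. Markers of other cell types moved with age. Of erythroid markers 2 of 3 fell (HBB by 1.53 and AHSP by 1.73), of T cell markers 2 of 3 fell (CD3E by 2.07 and CD3D by 1.63), and of endothelial markers 2 of 3 fell (PECAM1 by 0.51 and KDR by 0.46). Of macrophage markers 3 of 4 rose (FCER1G at 0.76, CD14 at 0.66 and FCGR1A at 2.07), the 1 tested smooth muscle marker, CNN1, rose by 1.83, and of fibroblast markers 1 of 4 fell (COL3A1 by 0.37). The skeletal muscle marker TNNC2 differed by 1.11 with an adjusted p of 0.551. The summed linear level of the erythroid list ranged from 53.9 to 258 in fetal and from 25.7 to 68.8 in newborn arrays, and that of the macrophage list from 0.736 to 1.10 and from 1.07 to 2.35. The part of these cells in the differences of the probes named EEF1A1 and EEF1E1 was not tested. In bulk tissue fewer cells of a type and less RNA per cell cannot be told apart.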

How the data were processed

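Scanner files as deposited give an intensity for each spot, from Agilent Feature Extraction 10.1.1.1 per the file headers, with the background taken off in the processed signal and arrays not scaled to each other. The authors' deposited series matrix has log2 values for 7041 probes, as its values show. Every column correlated best with its own array (r 0.986 to 0.992). It covers 24 member probes and served only as an alternative, because no source names its scaling. The labels' protocols name Cy3 as the dye, and the label field names Cy5.

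The value used was the log2 processed signal, set against the 75th percentile of its array by subtraction. Controls and outlier spots were dropped and repeated spots of a probe averaged. A probe entered the tests if above background on 6 or more arrays (10257 of 15008). The tests were those of limma (version 3.58.1, lmFit with eBayes, R 4.3.3, files read with version 1.17.8 of data.table), two-sided, adjusted by Benjamini-Hochberg across tested probes, with calls at 0.05. The first fit had age alone, the second added sex and the third their product. The number of arrays limits the precision. Python 3.11.15 with pandas 2.3.3, matplotlib 3.10.9 and numpy 2.4.6 drew the figures. The steps were tested on simulated data.

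Gene names are those on the array, updated through RefSeq's list of sheep genes. All members are described. The rule for naming gives values for members that passed, for each role the genes with the smallest p and the highest and lowest change, fixed genes where measured, the 5 named genes most like the ribosomal mean, and listed pathway genes that passed. Others were named after their values were seen. The members and lists were chosen with earlier results of these data known. Alternatives were 2 normexp corrections (offset 50), other scalings, the series matrix, other filters, outlier spots kept, a trended robust fit, the mean of a gene's probes, each array left out, and terms for slide, sex, replicate number or animal. The additional probes, the fit without fetal 2 and newborn 6, and the refits of the product of age and sex were added after seeing the data. Some results are not reported here.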

Additional observations from a re-analysis of the deposited data

Results flagged for a closer look

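Within a group, an array was marked where its gap to the nearest other array was large for the range of the group (Dixon's test at 95%). Chance marks about 1 in 20 groups, and 14 of 48 were marked, for 24 probes that share arrays and, in part, sequence. Of these, 12 were fetal 2 as the lowest fetal array. Its levels were 5.93 for RPL13A, 8.66 for RPL6, 7.88 for RPS20 and 8.16 for RPS27A probe 1. The RPL10 probes 2 and 3 had 6.57 and 6.39 there, the RPL14 probes 5.48 and 5.46, the RPS26 probes 7.21 and 7.18, and the EEF1A1 probes 1.06 and 0.59. The nearest fetal array was at 6.56 for RPL13A, 9.28 for RPL6 and 7.86 for RPS26 probe 1. The remaining marks were RPL4 on newborn 6, at 2.17 with the next array at 2.88, and MRPL32 on newborn 1, at -2.15 with the next at -1.05.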

How the results depend on the processing

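The count of member probes that passed for age, 3, was 0 with normexp on the background of each spot (48 of all probes passed then, against 2366) and 0 within slide 1 and within slide 2. It was 1 with no filter on dim probes, when 1834 of all 15008 probes passed. It was also 1 with sex in the model (1944 of 10257 probes passed) and with animal number as a random block (1717). Replicate numbers did not pair the arrays (correlation of deviations -0.07 to 0.05), and with the replicate block the count was 1, with 1326 calls over all probes. Leaving out 1 array gave 1 to 5, when 1726 to 3116 of all probes passed. Leaving out fetal 2 and newborn 6 gave 6, when 2714 of all probes passed. The cytosolic ribosomal protein genes that passed, 0, were 1 with quantile normalization and 1 without fetal 2 and newborn 6, RPL4 both times, and 0 to 0 with 1 array left out. Within slides 356 and 23 of all probes passed, and without newborn 6 there were 3116. EEF1A1 probe 1 kept its call in 26 of 29 alternatives, EEF1E1 probe 1 in 16 and EEF1A1 probe 2 in 7, all higher in newborns each time. The median of the 10 cytosolic genes, 0.12 against 0.03 for all probes, was 0.03 against 0.03 without fetal 2 and 0.01 against 0.01 with quantile normalization, and the counts for sex and for age by sex stayed at 0. Levels near background, as for 2 RPS25 probes, could not be tested.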
